A study of Danio rerio with 18 samples.

Results

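The collagens and laminins measured here were 27 genes of the 8793 that the array names, 20 encoding collagen chains and 7 encoding laminin chains. They were chosen by name, with earlier results of these data known. A gene was taken when its platform symbol began with col, a number, a and a number, or with lama, lamb or lamc and a number, and col10a1a was left out. Each gene was read from whichever of its probe sets was brightest on average over the 18 arrays. 5 of the genes (col1a1a, col1a2, col5a2a, col17a1b and lama4) had another probe set, so that 32 probe sets were measured in all. 1 more probe set that matched the rule carried several gene symbols and was not used, and type IV collagen is not analysed here. Current gene symbols gave the same 27 genes. By type of assembly, 6 were fibrillar collagens, 5 fibril-associated collagens (FACIT), 1 a beaded-filament collagen, 2 short-chain network collagens, 10 basement membrane genes (3 collagens and 7 laminins), 1 an epidermal collagen and 2 collagens of other types.

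Transcripts were measured on Affymetrix arrays in the regenerating tail fin of adult male zebrafish of the AB strain. All fish had the fin cut at the point where its rays branch and received liposomes of phosphatidylcholine by injection into the body cavity. In vehicle fish the liposomes were empty, and in TCDD fish they carried TCDD (2,3,7,8-tetrachlorodibenzo-p-dioxin), which activates the aryl hydrocarbon receptor, to 50 ng per g of fish. The 6 groups are vehicle and TCDD fish taken 1, 3 or 5 days after the cut (dpa, days post amputation), with 3 arrays each, and each array holds RNA pooled from 10 fish, so that the errors describe pools and not single fish. Untreated and uncut fins are not analysed here. The tissue taken included a short stretch of stump in front of the cut. The labels give each array a replicate letter, B, D and E for vehicle fish at 1 dpa, A, B and D for TCDD fish at 1 and 5 dpa, and A, B and C for the other 3 groups. Array values are given in that order.

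Collagens are secreted proteins whose chains wind into triple helices. Fibrillar collagens pack into the cables that give dermis and bone their strength, fibril-associated collagens decorate these cables, and short-chain and beaded collagens form networks between them. Laminins are cross-shaped trimers of an alpha, a beta and a gamma chain, and together with network collagens they form the sheets that epithelia rest on. In a cut fin a wound epidermis first covers the stump, and a mesenchymal blastema beneath it then lays down new matrix and bone.

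All levels and differences below are on the scale log2(intensity + 1), which understates differences of dim transcripts, and levels of different probe sets are not compared with each other. A difference was called when limma's p-value, after Benjamini-Hochberg adjustment over all 15502 probe sets tested, was under 0.05. Of the 27 genes, 17 had a mean level above the 40th percentile of all probe sets (5.44) and 10 lay under it: col11a2, col15a1b, col28a1a, col2a1a, col8a1a, col9a1b, col9a2, col9a3, lamb2l and lamb4. The arrays' median intensity ran from 74.28 to 83.55. RNA quality was read from GAPDH, whose 3′ control set exceeded its 5′ set by group means of 1.86 to 2.62 on the log2 scale. This excess was highest on the replicate C arrays of 3 dpa, at 3.38 in vehicle and 4.06 in TCDD fish. Next came the replicate B arrays of 1 dpa, at 3.03 in vehicle and 2.95 in TCDD fish. These replicate B arrays were left out 1 at a time, not as a pair. The 3′ excess of actin had group means of 1.63 to 2.06. At 5 dpa it was lower on all 3 TCDD arrays (1.61 to 1.66) than on all 3 vehicle arrays (1.87 to 2.24). On that day 25 of the 27 genes were lower in TCDD fish, all 10 dim ones among them, beside 55.2% of all probe sets. The part of the actin difference in the lower levels was not tested. Calls among the 27 genes that are lost without the replicate C arrays are given with their value or adjusted p. For the genes that modify and crosslink collagen only counts are given. Epidermal markers were bright on every array (15 of 17 measured, summed intensity 138123 to 172590), whereas 10 of 11 skeletal muscle markers summed to 168 to 303. In such bulk tissue, fewer cells of a type and less RNA per cell cannot be told apart.

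Collagen transcripts were lower in TCDD than in vehicle fish on the mean of the differences at 1, 3 and 5 dpa. 6 of the 27 genes fell and none rose. These were the fibrillar collagens col11a1a, col5a2a, col1a1a and col1a2, the short-chain collagen col10a1b and the basement membrane collagen col18a1a. The falls were of moderate size, 1.38-fold for col18a1a and 1.45-fold to 1.65-fold for the type I and V chains, against 2.46-fold for col11a1a and 2.81-fold for col10a1b. No laminin gene was called. Over all probe sets 3.78% were called on this mean and 2.08% were called lower, beside 22.2% of the 27 genes. Without both replicate C arrays of 3 dpa only col11a1a was called, 3.7% of the 27 beside 1.37% of all probe sets called lower. With only the letters that both exposures of a day share it was again col11a1a alone, beside 1.03%. The sign was shared more widely than the calls, with 21 of the 27 lower and a median difference of -0.27, whereas 42.9% of all probe sets were lower and their median was 0.02. Among the 17 brighter genes 16 were lower, with a median of -0.49 against 0.03 over all probe sets of that brightness. The 10 dim genes split 5 lower and 5 higher, with a median of -0.01. This mean joins days of opposite sign, with 3, 2 and 10 of the 10 lower at 1, 3 and 5 dpa (median 0.06, 0.07 and -0.26).

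The class medians differed, although that difference was not tested. They include dim genes, whose differences are understated, and medians of the brighter genes of each class are not given here. Dim were col11a2 and col2a1a (fibrillar), lamb2l, lamb4 and col15a1b (basement membrane), and col9a1b, col9a2 and col9a3 (fibril-associated). All 6 fibrillar collagens were lower on the mean (median -0.62), 4 of them called. Of the 10 basement membrane genes 9 were lower (median -0.28), 1 of them called. The 5 fibril-associated collagens had a median of 0.06, with 2 lower and none called. The 2 short-chain collagens had a median of -0.72, from -1.49 for col10a1b, which was called, and 0.04 for the dim col8a1a. The beaded-filament col6a3 stood at -0.46 and the epidermal col17a1b at -0.21, neither called. These counts of lower genes were the same with quantile normalization and with median centring of the arrays.

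**Figure D1:**
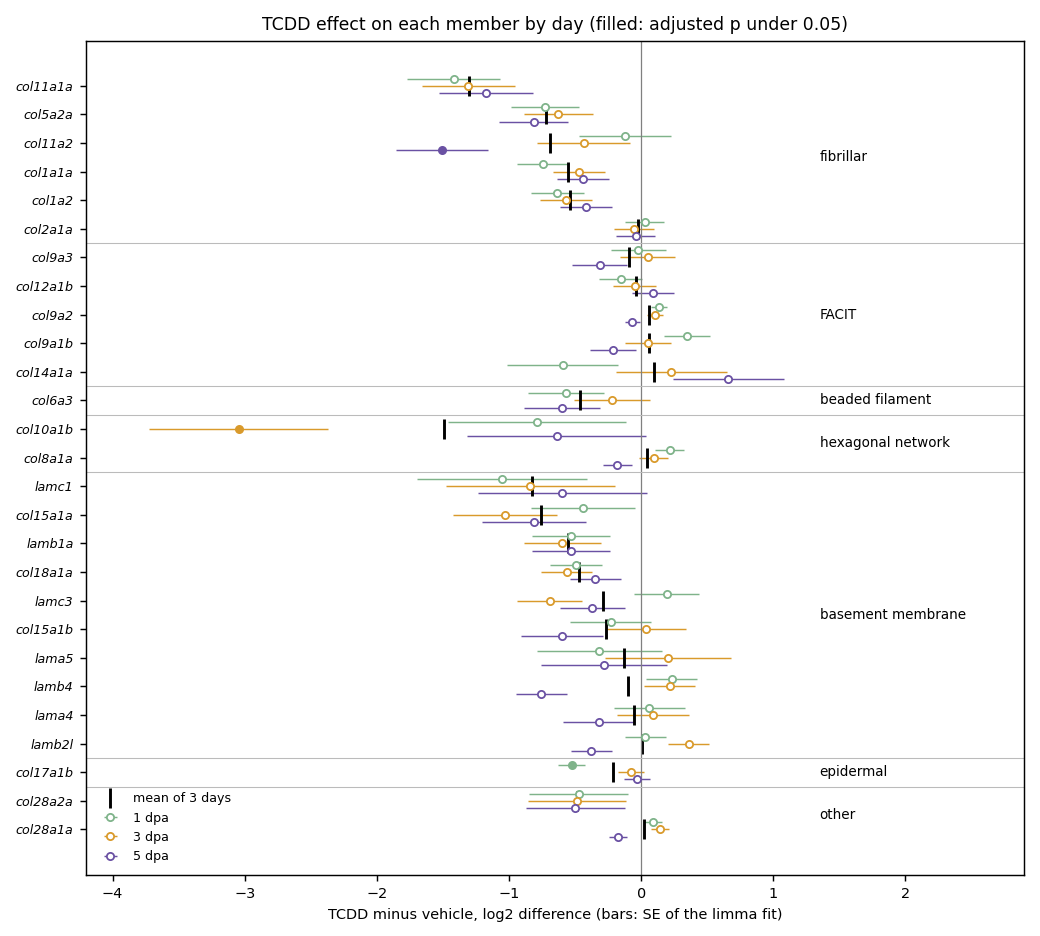
Difference between TCDD and vehicle fish for each of the 27 genes at 1, 3 and 5 dpa (circles, log2 scale, bars are the standard error of the limma fit) and on the mean of the 3 days (black ticks), grouped by type of assembly. Filled circles have an adjusted p under 0.05 (col17a1b at 1 dpa, col10a1b at 3 dpa and col11a2 at 5 dpa), and most fibrillar genes lie left of 0 on all 3 days.

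Day by day the arrays of 3 against 3 gave few calls. At 1 dpa 1 of the 27 genes was called, with 0.245% of all probe sets. At 3 dpa it was again 1, with 1.11% of all, and at 5 dpa 1, with 1.64% of all. The genes were col17a1b, col10a1b and col11a2 in turn, each lower in TCDD fish. At an unadjusted p under 0.05 the numbers were 7, 9 and 7 of the 27 genes (25.9%, 33.3% and 25.9%), where 8.01%, 10.8% and 17.6% of all probe sets had such a p. With the replicate letter as a block the number called was 1 at 1 dpa, 3 at 3 dpa and 4 at 5 dpa, and the added genes are named with their values below. The share of all probe sets called with the block is not given here, so these counts have no baseline.

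Separation of the groups was seen more often than calls. All 3 TCDD arrays lay under all 3 vehicle arrays for 7 of the 27 genes at 1 dpa, where 3.01% of all probe sets did so. The number was 8 at 3 dpa, with 6.35% of all, and 10 at 5 dpa, with 17.4% of all. On all 3 days this held for col11a1a and col1a2, 2 of the 27 genes, and for 0.464% of all probe sets. The opposite separation, TCDD above vehicle, was met at 3 dpa only, by 2 dim genes, col8a1a and lamb2l. The share of all probe sets with this opposite separation is not given here, so the 2 directions cannot be compared with their backgrounds.

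Among the fibrillar collagens col11a1a, a chain of the thin type XI fibrils that in mammals are best known from cartilage, had the largest difference on the mean of the days, although at 5 dpa that of the dim col11a2 was larger. In vehicle fish its level was 7.81, 8.75 and 8.96 at 1 dpa, 10.88, 9.99 and 11.09 at 3 dpa, and 11.59, 11.78 and 11.52 at 5 dpa. In TCDD fish it was 7.12, 7.2 and 6.94 at 1 dpa, 9.20, 9.54 and 9.31 at 3 dpa, and 9.64, 10.59 and 11.14 at 5 dpa. Every TCDD array was below every vehicle array of its day, and the 1 dpa vehicle array of replicate B was the lowest vehicle array of the course. The differences were -1.42 ± 0.35 at 1 dpa, -1.31 ± 0.35 at 3 dpa and -1.18 ± 0.35 at 5 dpa (± SE), none of which was called for its day (adjusted p = 0.182, 0.107 and 0.108). On their mean col11a1a fell by 1.3 ± 0.20 (adjusted p = 0.00161). This call held with each of the 18 arrays left out in turn (adjusted p up to 0.00509) and without both replicate C arrays of 3 dpa (-1.22, adjusted p = 0.0114).

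The type I chains col1a1a and col1a2, which together form the most abundant fibril of dermis and bone, changed alike. col1a1a stood at 12.41, 13.12 and 13.16 in vehicle and 12.19, 11.96 and 12.33 in TCDD fish at 1 dpa. At 3 dpa it stood at 14.18, 13.73 and 14.21 in vehicle and 13.65, 13.59 and 13.46 in TCDD fish. The groups did not overlap on either day, with vehicle replicate B the nearest to the TCDD arrays on both. At 5 dpa the levels were 14.51, 14.36 and 14.53 in vehicle fish and 13.75, 13.94 and 14.39 in TCDD fish, where the TCDD array of replicate D reached into the vehicle range. On the mean of the days col1a1a fell by 0.55 ± 0.11 (adjusted p = 0.0113), and its other probe set fell by 0.62 (adjusted p = 0.0247).

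col1a2 stood at 12.40, 12.91 and 13.22 in vehicle and 12.28, 11.99 and 12.36 in TCDD fish at 1 dpa. At 3 dpa it stood at 14.09, 13.54 and 13.94 in vehicle and 13.33, 13.38 and 13.14 in TCDD fish, and at 5 dpa at 14.29, 14.23 and 14.26 against 13.49, 13.90 and 14.14. The groups were apart on all 3 days, with TCDD replicate D the nearest to the vehicle arrays at 1 and 5 dpa. On the mean col1a2 fell by 0.54 ± 0.11 (adjusted p = 0.0131) and its other probe set by 0.57 (adjusted p = 0.00209).

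col5a2a encodes a chain of type V collagen, which seeds type I fibrils and limits their width. Its vehicle levels were 11.45, 12.16 and 12.52 at 1 dpa, 12.90, 12.23 and 12.66 at 3 dpa, and 13.10, 12.88 and 13.03 at 5 dpa. The TCDD levels were 11.21, 10.99 and 11.73 at 1 dpa, 12.10, 11.94 and 11.88 at 3 dpa, and 11.80, 12.20 and 12.57 at 5 dpa. The groups overlapped at 1 dpa and were apart at 3 and 5 dpa. On the mean col5a2a fell by 0.72 ± 0.15 (adjusted p = 0.0114). Its other, dimmer probe set fell by 0.59 on the mean (adjusted p = 0.0109) and by 0.95 at 3 dpa (adjusted p = 0.0405), where the named set had -0.63 (adjusted p = 0.391).

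The calls for col1a1a, col1a2 and col5a2a held with each array left out in turn (adjusted p up to 0.0287, 0.0326 and 0.029). They were lost without both replicate C arrays of 3 dpa, with differences of -0.51, -0.50 and -0.70 and adjusted p of 0.0584, 0.0646 and 0.0537. With the replicate letter as a block, col5a2a was also called at 3 dpa (-0.63, adjusted p = 0.0364) and at 5 dpa (-1.01, adjusted p = 0.00614), and col1a1a at 5 dpa (-0.58, adjusted p = 0.0388). The other probe sets of col1a1a and col1a2 were then called at 3 dpa (-0.58 and -0.64, adjusted p = 0.0419 and 0.00584) and at 5 dpa (-0.65 and -0.54, adjusted p = 0.0388 and 0.0257).

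The remaining fibrillar genes were dim. col11a2, the other type XI chain measured, was at 6.97, 5.18 and 6.09 in vehicle and 4.24, 4.60 and 4.88 in TCDD fish at 5 dpa, with vehicle replicate A the highest. On the other days its levels ran from 4.18 to 5.53, and the exposures overlapped. At 5 dpa it fell by 1.51 ± 0.35 (adjusted p = 0.0439), a call that held in only 4 of the 18 leave-one-out fits, those without vehicle replicate B of 1 or 5 dpa or vehicle replicate A or B of 3 dpa (adjusted p up to 0.135). Without both replicate C arrays of 3 dpa the adjusted p was 0.0646. col2a1a, the main collagen of cartilage, had group means of 2.68 to 2.9 with no call in any comparison.

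**Figure D2:**
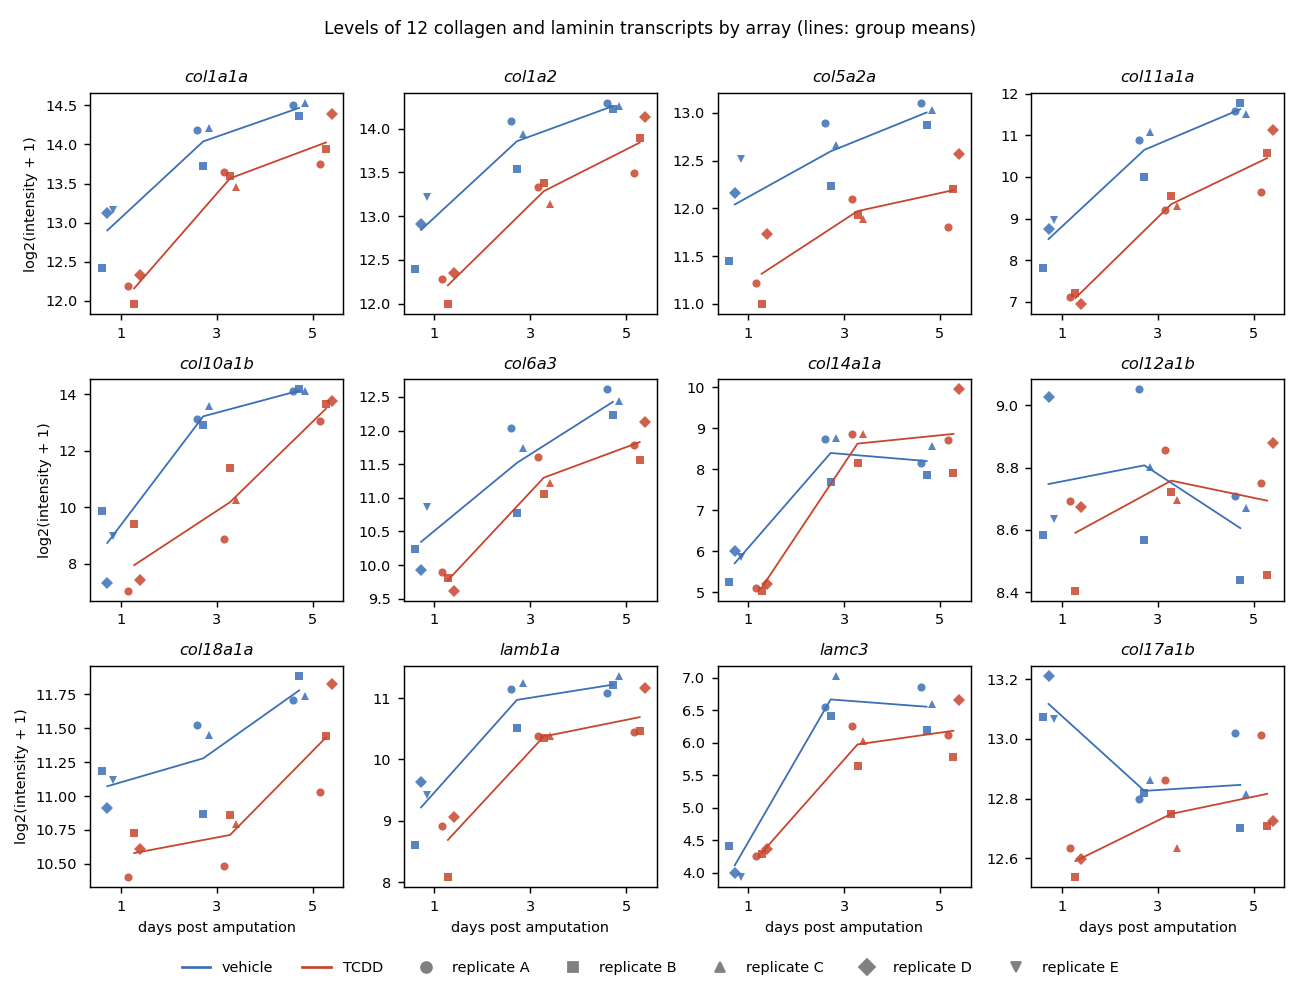
Level of 12 collagen and laminin transcripts on each array, as log2(intensity + 1) against days post amputation, vehicle in blue and TCDD in red, with replicate letters as symbols and lines through the group means. The vehicle line of col11a1a, col1a1a, col1a2 and col5a2a lies above the TCDD line throughout, col10a1b parts most at 3 dpa, and col12a1b and col17a1b change little over time.

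None of the fibril-associated collagens was called for TCDD. The product of col12a1b lies on type I fibrils. Its vehicle levels were 8.58, 9.03 and 8.63 at 1 dpa, 9.05, 8.57 and 8.80 at 3 dpa, and 8.71, 8.44 and 8.67 at 5 dpa. Its TCDD levels were 8.69, 8.41 and 8.68 at 1 dpa, 8.86, 8.72 and 8.70 at 3 dpa, and 8.75, 8.46 and 8.88 at 5 dpa. The exposures overlapped on each day, and the mean difference was -0.04 ± 0.09 (adjusted p = 0.895).

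col14a1a, which binds fibrils in the same manner, was apart between exposures at 1 dpa only, at 5.26, 6.01 and 5.86 in vehicle and 5.10, 5.05 and 5.20 in TCDD fish. Its mean difference was 0.10 ± 0.24 (adjusted p = 0.9), and its day differences ran from -0.60 at 1 dpa to 0.66 at 5 dpa without a call. The 3 type IX genes col9a1b, col9a2 and col9a3, which in cartilage coat type II fibrils, were dim, with group means of 2.89 to 3.67 and mean differences of 0.06, 0.06 and -0.10.

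col6a3, a chain of the beaded type VI filaments found around cells of connective tissue, was lower without reaching a call. Vehicle levels were 10.24, 9.94 and 10.86 at 1 dpa, 12.04, 10.78 and 11.75 at 3 dpa, and 12.61, 12.23 and 12.44 at 5 dpa. TCDD levels were 9.90, 9.81 and 9.62, then 11.61, 11.06 and 11.23, then 11.79, 11.57 and 12.13. The groups were apart at 1 and 5 dpa, and at 3 dpa vehicle replicate B was the lowest of all 6 arrays. The mean difference was -0.46 ± 0.16 (adjusted p = 0.16).

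Of the short-chain collagens, col10a1b showed the largest difference of any of the 27 genes on a given day. Type X collagen is known from hypertrophic cartilage in mammals and from bone-forming cells in fish. At 1 dpa its level was 9.88, 7.32 and 8.99 in vehicle and 7.04, 9.39 and 7.40 in TCDD fish. At 3 dpa it was 13.14, 12.92 and 13.60 in vehicle fish and 8.89, 11.40 and 10.25 in TCDD fish, and at 5 dpa 14.12, 14.18 and 14.11 against 13.06, 13.65 and 13.78. The exposures overlapped widely at 1 dpa and were apart at 3 and 5 dpa, and the spread was widest in both 1 dpa groups and in TCDD fish at 3 dpa (SD 1.26 to 1.3, n = 3).

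The fall of col10a1b at 3 dpa was 3.05 ± 0.68, or 8.26-fold (adjusted p = 0.0435), and that on the mean of the days 1.49 ± 0.39 (adjusted p = 0.0466). Both calls were close to the threshold. At 3 dpa the call held only in the 5 fits without vehicle replicate B or D of 1 dpa, TCDD replicate A or B of 1 dpa or TCDD replicate B of 3 dpa (adjusted p up to 0.188 over the other arrays). Its size was -2.40 without TCDD replicate A of 3 dpa, -3.66 without replicate B, and -2.89 without both replicate C arrays (adjusted p = 0.364). With 1 array left out, the call on the mean held only without vehicle replicate D or TCDD replicate B of 1 dpa or TCDD replicate B of 3 dpa (adjusted p up to 0.0953). Without both replicate C arrays the adjusted p was 0.143. With all arrays kept, median centring or a constant prior also ended the call on the mean. The dim col8a1a had a mean difference of 0.04 ± 0.06 (adjusted p = 0.804).

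Some markers of bone-forming cells differed between the exposures as well. The summed intensity of the 9 osteoblast markers measured of 11 was 14860 to 20373 on the 3 dpa vehicle arrays and 5111 to 8027 on the 3 dpa TCDD arrays. At 5 dpa the ranges were 24502 to 26071 and 10230 to 19794, again apart, and at 1 dpa 1457 to 2261 and 948 to 1487, which overlapped. col10a1a, itself a type X collagen, made up 35.1% to 66.1% of the sum on the 3 dpa arrays. Without it, a sum added after the data were seen, the other 8 markers gave 5034 to 8101 in vehicle and 3009 to 3315 in TCDD fish at 3 dpa, and 10541 to 11902 against 4042 to 8072 at 5 dpa. Gene by gene the list was mixed, with a median difference of -0.06 at 3 dpa, 5 of 9 lower, and ifitm5 and runx2a called lower (-3.15 and -1.07). The 14 fibroblast and blastema markers measured of 19 summed to 39624 to 47839 in vehicle and 31532 to 33048 in TCDD fish at 3 dpa, apart as well. At 1 dpa these ranges were 21946 to 28668 and 18790 to 25131, and at 5 dpa 46659 to 54138 and 36430 to 51288. Of the 14 fibroblast and blastema markers 13 were lower at 3 dpa (median -0.47), 1 of them called. At 1 and 5 dpa 8 and 10 of the 14 were lower (median -0.18 and -0.09). The 15 epidermal markers overlapped between the exposures on each day, and no marker of these lists was at 0 on any array. On the mean of the days 3 of the 9 osteoblast markers were called lower (5 of 9 lower, median -0.48), and of the 14 fibroblast markers 2 were called lower and 1 higher. Endothelial markers (4 of 14 measured) were higher in TCDD fish at 1 dpa, 561 to 589 against 374 to 515, and red cell markers (4 of 6) at 3 dpa, 4755 to 6240 against 2474 to 4389, without a called gene. Myeloid markers (10 of 14) summed to 13574 to 30818, with 9 of the 10 lower in TCDD fish at 1 dpa (median -0.51). Of these mpx, the neutrophil peroxidase, was called higher on each day (by 3.70, 3.91 and 3.80), and marco and spi1b were called lower on the mean (-1.52 and -0.55). Nerve markers (6 of 9) summed to 228 to 715. The part of these markers in the collagen differences was not tested.

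Of the basement membrane genes only col18a1a was called. It encodes type XVIII collagen, a heparan sulfate carrier whose tail is released as endostatin in mammals. Vehicle levels were 11.19, 10.91 and 11.12 at 1 dpa, 11.52, 10.86 and 11.45 at 3 dpa, and 11.71, 11.89 and 11.74 at 5 dpa. TCDD levels were 10.40, 10.73 and 10.61, then 10.49, 10.86 and 10.79, then 11.03, 11.45 and 11.82. The groups were apart at 1 dpa and, by 0.01, at 3 dpa, and TCDD replicate D overlapped the vehicle arrays at 5 dpa. On the mean col18a1a fell by 0.47 ± 0.11 (adjusted p = 0.0292). A block for the letter ended the call (-0.45, adjusted p = 0.0508), as did leaving out both replicate C arrays of 3 dpa (adjusted p = 0.0919). It was also lost without any 1 of 8 arrays, vehicle E or TCDD A of 1 dpa, vehicle A or C or TCDD A of 3 dpa, or vehicle B or C or TCDD A of 5 dpa (adjusted p up to 0.0665).

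Its relative col15a1a, a type XV collagen that in mammals ties basement membranes to the fibrils beneath, had group means of 9.07 ± 0.55, 8.55 ± 0.80 and 8.45 ± 0.17 in vehicle and 8.63 ± 0.51, 7.52 ± 0.31 and 7.64 ± 0.60 in TCDD fish at 1, 3 and 5 dpa (± SD, n = 3). The mean difference was -0.76 ± 0.23, not called (adjusted p = 0.0844). With the letter as a block it was called, at -0.76 on the mean (adjusted p = 0.00262), -1.03 at 3 dpa (adjusted p = 0.0127) and -0.88 at 5 dpa (adjusted p = 0.0429).

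The laminin chains were lower in part. lamb1a, the beta chain of the most widespread laminins, had vehicle means of 9.22 ± 0.55, 10.97 ± 0.39 and 11.22 ± 0.14 and TCDD means of 8.69 ± 0.53, 10.38 ± 0.02 and 10.69 ± 0.41, the groups being apart at 3 dpa only. Its mean difference was -0.55 ± 0.17 (adjusted p = 0.0944), which a block for the letter turned into a call (adjusted p = 0.00942). lamc1, the gamma chain that pairs with it, had the largest mean difference of the class, -0.83 ± 0.37, but its arrays scattered widely (SD 0.52 to 1.14 in the 6 groups) and the adjusted p was 0.288.

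lamc3, another gamma chain, had a mean difference of -0.29 ± 0.14 (adjusted p = 0.351) and was apart at 3 dpa, at 6.56, 6.42 and 7.03 in vehicle and 6.26, 5.65 and 6.02 in TCDD fish. The alpha chains lama4 and lama5 had mean differences of -0.06 ± 0.16 and -0.13 ± 0.28, and the exposures overlapped on each day. The dim lamb4, lamb2l and col15a1b had -0.10, 0.00 and -0.27. At 5 dpa lamb4 was apart, with vehicle levels of 5.55, 5.10 and 5.05 above TCDD levels of 4.53, 4.35 and 4.55, a difference of -0.76 ± 0.19 (adjusted p = 0.0612).

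The epidermal collagen col17a1b, a membrane collagen of the hemidesmosomes that hold basal keratinocytes to the basement membrane, differed early. At 1 dpa it stood at 13.07, 13.21 and 13.07 in vehicle and 12.64, 12.54 and 12.60 in TCDD fish. At 3 dpa the levels were 12.80, 12.82 and 12.86 against 12.86, 12.75 and 12.63, and at 5 dpa 13.02, 12.70 and 12.82 against 13.01, 12.71 and 12.73. The groups were wide apart relative to their spread at 1 dpa and overlapped at 3 and 5 dpa. At 1 dpa col17a1b fell by 0.53 ± 0.10, or 1.44-fold (adjusted p = 0.0381), and its other probe set had a difference of -0.62 ± 0.29 (adjusted p = 0.625). The later differences were -0.08 and -0.03. A change of the effect between days did not pass (F test over the 3 days, adjusted p = 0.279).

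The 1 dpa call for col17a1b was lost in 10 of the 18 leave-one-out fits and held only without vehicle replicate B of 1 dpa, TCDD replicate A or C of 3 dpa, vehicle replicate A or B of 5 dpa or any TCDD array of 5 dpa (adjusted p up to 0.234). Without both replicate C arrays of 3 dpa, an alternative that leaves its size as it is, the adjusted p was 0.0626. With the letter as a block col17a1b was also called on the mean of the days (-0.24, adjusted p = 0.014, against 0.0534 without the block). The 15 epidermal markers had a median difference of -0.08 at 1 dpa, with 11 lower and none called.

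Of the other types, col28a2a encodes a collagen with von Willebrand factor A domains. Its vehicle levels were 5.84, 6.04 and 6.14, then 6.64, 6.0 and 6.38, then 7.54, 7.38 and 6.46 over the 3 days. Its TCDD levels were 5.36, 5.86 and 5.38, then 5.29, 6.44 and 5.83, then 5.87, 7.38 and 6.64. The exposures overlapped on each day, and the mean difference was -0.49 ± 0.22 (adjusted p = 0.282). The dim col28a1a had a mean difference of 0.02 ± 0.04 (adjusted p = 0.878).

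Arrays of the same letter deviated together, and TCDD was compared with vehicle within the 7 pairs of arrays that share day and letter. 7 of the 27 genes were lower in TCDD fish in all 7 pairs: col11a1a, col1a1a, col1a2, col5a2a, col15a1a, col18a1a and lamb1a. The same held for 3.23% of all probe sets. Over the 17 brighter genes the median difference was lowest in replicate A at 5 dpa (-0.76) and replicate C at 3 dpa (-0.75), and nearest to 0 in replicate B at 3 dpa (-0.14), where 11 of the 17 were lower. For col11a1a the pairs ran from -0.46 in replicate B at 3 dpa to -1.95 in replicate A at 5 dpa. For col18a1a they ran from -0.01 in replicate B at 3 dpa to -1.04 in replicate A at 3 dpa. The 3 dpa vehicle array of replicate B was the lowest of its 3 arrays for 15 of the 17 genes, and the 5 dpa TCDD array of replicate D, which has no vehicle partner, was the highest of its 3 for 13 of the 17. Such ranks over all probe sets are not given here.

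**Figure D3:**
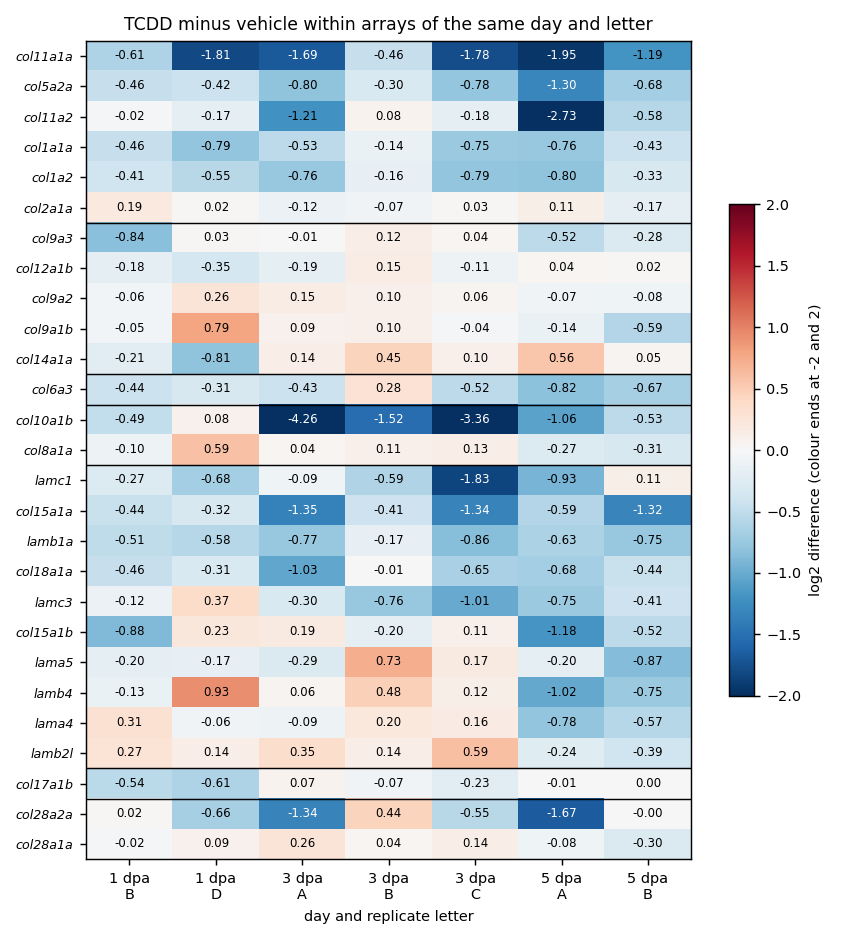
TCDD minus vehicle within each of the 7 pairs of arrays that share day and replicate letter, as a log2 difference for each of the 27 genes, blue for lower and red for higher in TCDD fish (colours end at -2 and 2, the number is printed). Rows are grouped by type of assembly, and the rows of col11a1a, col5a2a, col1a1a, col1a2, col15a1a, lamb1a and col18a1a are blue in every pair.

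In vehicle fish 8 of the 27 genes rose between 1 and 3 dpa and none fell. Of all 27, 17 were higher and 10 lower. They were col10a1b, col14a1a, lamc3, col11a1a, lamb1a, col6a3, col1a1a and col1a2, which is 29.6% of the 27, where 5.51% of all probe sets were called and 3.48% were called higher. The median step of the 17 brighter genes was 1.01, against -0.04 for all probe sets of that brightness. These steps use the vehicle arrays that also enter the TCDD differences.

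The largest step in vehicle fish was that of col10a1b, 4.49 ± 0.68 or 22.5-fold, from a mean of 8.73 ± 1.3 to 13.22 ± 0.35 (± SD, n = 3, adjusted p = 0.00114). Without vehicle replicate D of 1 dpa it was 3.79. col14a1a rose 6.43-fold, from 5.71 ± 0.40 to 8.40 ± 0.61 (adjusted p = 0.00145). lamc3 rose 5.87-fold from a dim level, 4.12 ± 0.26 to 6.67 ± 0.32 (adjusted p = 3.63e-05). col11a1a rose 4.43-fold, lamb1a 3.37-fold, col1a1a 2.2-fold and col1a2 2.02-fold (adjusted p = 0.00208, 0.00241, 0.00314 and 0.00735).

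The step of col6a3 was 2.26-fold (adjusted p = 0.0249), a call lost without vehicle replicate B or D of 1 dpa, vehicle replicate A or C of 3 dpa, or both replicate C arrays of 3 dpa (adjusted p up to 0.139). The other 7 steps were called with each array left out in turn. With the letter as a block col5a2a (1.05, adjusted p = 0.00638) and lama5 (1.5, adjusted p = 0.0119) were called as well, and so was the other probe set of col5a2a (0.98, adjusted p = 0.00819). A fit of the 6 arrays of these 2 groups alone made 3 of the 8 calls: col10a1b, col14a1a and lamc3. The epidermal col17a1b took the opposite sign, -0.29 ± 0.10, without a call (adjusted p = 0.109). With the letter as a random effect col17a1b was called, and so was lama5.

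In TCDD fish 9 of the 27 genes rose between 1 and 3 dpa and none fell, 33.3% of the 27, where 10.8% of all probe sets were called and 4.73% were called higher. All 8 genes that rose in vehicle fish were among them, and the ninth was lama5, an alpha chain of epithelial laminin, which rose 3.24-fold (adjusted p = 0.0329, and 0.19 for its 1.18 in vehicle fish). The shared 8 are the whole vehicle list and 88.9% of the TCDD list.

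The sizes in TCDD fish were 3.51 ± 0.42 for col14a1a (11.4-fold), 2.26 ± 0.35 for col11a1a, 1.67 ± 0.25 for lamc3, 1.69 ± 0.29 for lamb1a, 1.53 ± 0.29 for col6a3, 1.41 ± 0.20 for col1a1a and 1.08 ± 0.20 for col1a2. Those 7 calls held with each array left out. col10a1b rose by 2.24 ± 0.68 (adjusted p = 0.0464). Its call was lost in 14 of the 18 leave-one-out fits (adjusted p up to 0.192). It held without vehicle replicate B or D of 1 dpa, TCDD replicate B of 1 dpa or TCDD replicate A of 3 dpa. Without both replicate C arrays of 3 dpa the step of col10a1b was 2.2 (adjusted p = 0.141). The call was also lost with median centring, a constant prior, only the groups compared or only letters held by both exposures. Its step was 2.96 without TCDD replicate B of 1 dpa, 2.88 without TCDD replicate A of 3 dpa and 1.62 without TCDD replicate B of 3 dpa. The call of lama5 was lost without TCDD replicate A or B of 1 dpa, TCDD replicate A or C of 3 dpa or both replicate C arrays (adjusted p up to 0.135). With the letter as a block col5a2a rose (0.86, adjusted p = 0.00338) and col15a1a fell (-1.05, adjusted p = 0.00567).

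The step was compared between exposures by the difference of the differences. None of the 15502 probe sets was called in limma for that difference (669 at an unadjusted p under 0.05, of them 3 of the 27 genes, col17a1b, lamc3 and col10a1b). For col10a1b the step was smaller in TCDD fish by 2.26 ± 0.96, for lamc3 by 0.88 ± 0.35, and for col17a1b the steps had opposite signs and differed by 0.45 ± 0.14. None of these 3 passed the adjustment (adjusted p = 1.0, 1.0 and 0.846).

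**Figure D4:**
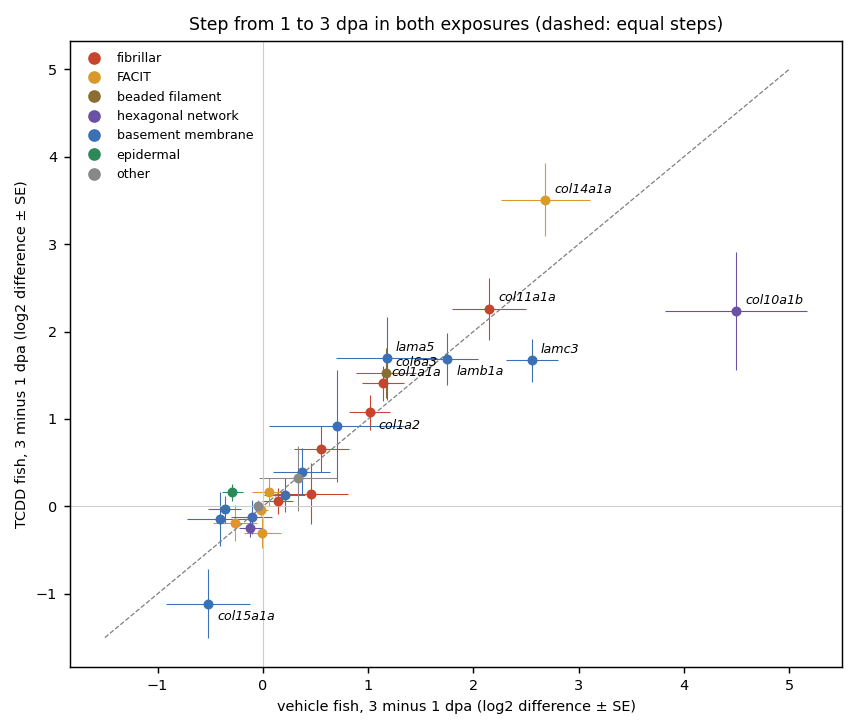
Step from 1 to 3 dpa in TCDD fish against the same step in vehicle fish for the 27 genes (log2 differences with standard errors of the limma fit, coloured by type of assembly, dashed line for equal steps). Most genes lie near the dashed line, with col10a1b and lamc3 under it and col14a1a above it, and no difference between the steps passed the adjusted test.

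Between 3 and 5 dpa few differences were called. In vehicle fish 1 of the 27 genes was called, the dim lamb4, which rose by 1.05 ± 0.19 (adjusted p = 0.0361), where 0.342% of all probe sets were called. That call held only without vehicle replicate B or D of 1 dpa, TCDD replicate A or D of 1 dpa, TCDD replicate C of 3 dpa or any TCDD array of 5 dpa (adjusted p up to 0.143), and without both replicate C arrays of 3 dpa the adjusted p was 0.105. In TCDD fish none of the 27 genes and 0.0129% of all probe sets were called by limma, and 7 of the 27 (25.9%) had an unadjusted p under 0.05, as did 6.63% of all probe sets. The median step of the 17 brighter genes was 0.41 in vehicle and 0.32 in TCDD fish, against -0.04 and 0.01 over all probe sets of that brightness. col10a1b had the largest step of the 27 in TCDD fish, 3.32 ± 0.68 (adjusted p = 0.493), and 0.91 ± 0.68 in vehicle fish (adjusted p = 0.616).

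A TCDD effect that differed between the 3 days was found by limma for none of the 27 genes and for 0.0516% of all probe sets (8 probe sets). An unadjusted p under 0.05 was reached by 6 of the 27 (22.2%) and by 12.2% of all probe sets, and fits with the letter as a block or as a random effect called none of the 27 either. The smallest adjusted p among the 27 was that of the dim lamb4 (0.262).

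Genes whose products modify and crosslink collagen were lower as well. Of 26 such genes listed 9 were measured, all 9 were lower on the mean of the days (median -1.1), and 7 of them fell. Over all probe sets 42.9% were lower on this mean and 2.08% were called lower. The lysyl oxidases loxa and loxl2b, which crosslink fibrils, fell by 2.08 ± 0.28 and 1.1 ± 0.16 (adjusted p = 0.000431 and 0.00074). The prolyl hydroxylase subunits p4ha1b and p4ha2, which stabilise the triple helix, fell by 1.45 and 0.76 (adjusted p = 0.000106 and 0.00534), and the lysyl hydroxylase plod1a by 1.01 (adjusted p = 0.00199). The procollagen processing enhancers pcolce2b and pcolcea fell by 1.43 and 0.98 (adjusted p = 0.000512 and 0.0138). The chaperone serpinh1b and the lysyl hydroxylase plod3 had -1.5 and -0.41 (adjusted p = 0.107 and 0.273). By day 0, 5 and 3 of the 9 were called lower at 1, 3 and 5 dpa. Of all probe sets 0.245%, 1.11% and 1.64% were called on these days in either direction. Without both replicate C arrays of 3 dpa 6 of the 9 were called lower on the mean and 1 at 3 dpa. With the letter as a block it was 9 on the mean and 7 at 3 dpa. Which calls were lost is not given here. Apart from the 1.37% called lower on the mean without replicate C, shares of all probe sets are not given for these fits.

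In vehicle fish 5 of the 9 assembly genes rose between 1 and 3 dpa (loxa, loxl2b, p4ha1b, pcolcea and plod1a), beside 3.48% of all probe sets. The number called was 3 without both replicate C arrays and 8 with the letter as a block, fits whose shares of all probe sets are not given. In TCDD fish 2 were called higher, loxl2b and plod1a, beside 4.73% of all probe sets. All 9 were higher at 3 than at 1 dpa in both exposures (median step 1.54 in vehicle and 0.62 in TCDD fish). None of the 15502 probe sets was called for a difference of this step between exposures. The partners of these matrix proteins were barely covered. Of 14 basement membrane partners listed 1 was measured, nid1a, a nidogen that links laminin to collagen, with a mean difference of 0.05 ± 0.16 (adjusted p = 0.926). Of 18 receptors 3 were measured, the integrin chains itga5 and itga6b and dystroglycan (dag1), none called in a TCDD contrast. itga5, part of the fibronectin receptor, fell by 0.88 ± 0.26 between 1 and 3 dpa in TCDD fish (adjusted p = 0.0433).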

How the data were processed

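RNA of 18 pools of 10 fish was hybridised to Affymetrix zebrafish arrays. The deposited values are 1 linear intensity per probe set and array. Per the submitters' processing notes, GCRMA made them. Which version and settings it ran with is not given in the sources used here, and its background step shapes the values of dim probe sets.

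Of 15617 probe sets 115 controls were left out. log2(intensity + 1) of the other 15502 was fitted in limma 3.58.1 (R 4.3.3) as 6 group means over 18 arrays, with eBayes and a trended prior. Two-sided p-values were adjusted over all probe sets by the method of Benjamini and Hochberg, and differences were called under 0.05. The fit was tested on simulated data. Tables and figures were made with Python 3.11.15, pandas 2.3.3 and matplotlib 3.10.9. The number of arrays, 3 a group, limits the precision.

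Of the tested probe sets 10795 had 1 gene symbol in the platform annotation, 135 several and 4572 none, and only those with 1 were named. A gene was named as a member when its symbol matched the collagen or laminin pattern described above, and values were printed for members by class. The members and the lists of assembly genes, partners, receptors and cell type markers were chosen with earlier results of these data known.

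The labels give replicate letters without saying what a letter shares. Deviations from the group means correlated in each of the 7 same-day, same-letter pairs (r from 0.204 to 0.70, median 0.57, across probe sets), and in 2 of 20 same-day pairs of other letters r was over 0.1. Between days 23 of 24 same-letter pairs had r over 0.1 (median 0.372), against 16 of 84 pairs of other letters (median -0.131). The letters were therefore taken to pair the arrays. The main fit has no term for the letter, and values with the letter as a block stand beside results they change. Where nothing shows that pools came from separate tanks or days, p-values measure only the spread between these pools. Other alternatives were another pseudocount, quantile normalization, median centring, a filter on dim probe sets, a constant prior, the letter as a random effect, fewer samples in the fit, the mean of all probe sets of a gene, and leaving out each array.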

Additional observations from a re-analysis of the deposited data

Results flagged for a closer look

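The dim laminin chain lamb2l had TCDD differences of opposite sign at 3 and 5 dpa with no overlap between the exposures on either day. At 3 dpa all 3 TCDD arrays (5.36, 5.19 and 5.74) were above all 3 vehicle arrays (5.02, 5.05 and 5.14), a difference of 0.359. At 5 dpa all 3 TCDD arrays (5.14, 4.95 and 4.95) were below all 3 vehicle arrays (5.38, 5.34 and 5.45), a difference of -0.378. The change of sign was not particular to lamb2l. Of the 10 dim genes 8 were higher at 3 dpa (median 0.07) and all 10 lower at 5 dpa (median -0.26). Over all probe sets 60.2% were higher at 3 dpa and 55.2% lower at 5 dpa, while 59.8% of those above the 40th percentile were higher at 5 dpa. The difference between the days was tested over all 3 days together and did not pass (F test in limma, adjusted p = 0.309).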

How the results depend on the processing

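Over 775 alternative values of the 27 called differences, 639 kept their direction and call, 136 kept the direction and lost the call, and none changed direction. Many of these alternatives could not change a direction. Leaving out an array outside the groups compared and a constant prior leave each difference as it is. So does the filter on dim probe sets for the genes it keeps. Of 268 alternative counts of called genes 193 stayed within 1.5 times the reported count. These include counts with current symbols, which could not differ. They also include 0 against 0 for TCDD fish between 3 and 5 dpa and for effects differing between days. An equal count need not hold the same gene. At 3 dpa without vehicle replicate B of 3 dpa it was col11a1a in place of col10a1b. At 5 dpa without TCDD replicate D of 1 dpa it was lamb4 in place of col11a2. At 1 dpa (1 gene) the count was 0 with median centring, a constant prior, only the groups compared, only letters held by both exposures, without both replicate C arrays of 3 dpa, and with the mean of all probe sets. At 3 dpa (1 gene) it was 0 with a constant prior, only the groups compared, only shared letters and without replicate C, 3 with the letter as a replicate block and 2 with it as a random effect. At 5 dpa (1 gene) it was 0 with quantile normalization, without dim probe sets, with only the groups compared, only shared letters and without replicate C, 2 with a pseudocount of 16, 4 with the replicate block and 3 with the random effect. On the mean of the days (6 genes) it was 10 with the random effect, 8 with the replicate block, and 1 (col11a1a) with only shared letters or without replicate C. It was 5 with median centring or a constant prior, which lost col10a1b, and 7 with quantile normalization or without dim probe sets, which added col17a1b. For vehicle fish between 1 and 3 dpa (8 genes) it was 3 with only the groups compared and 10 with the block or the random effect. Between 3 and 5 dpa (1 gene) it was 0 with quantile normalization, only the groups compared, only shared letters and without replicate C. It was 0 without dim probe sets as well. That filter removes the dim col11a2 and lamb4 before the fit, so their loss here and at 5 dpa was fixed in advance. Leaving out 1 array gave 0 to 3 genes at 1 dpa (3 without vehicle replicate B), 0 to 1 at 3 dpa and at 5 dpa, 4 to 7 on the mean, 7 to 8 and 0 to 1 for the vehicle steps, 7 to 9 and 0 for the TCDD steps, and 0 for effects differing between days. For TCDD fish between 1 and 3 dpa (9 genes) the count was 8 with median centring, a constant prior or only the groups compared. It was 7 with only shared letters or without replicate C, and 11 with the block or the random effect. Beyond the calls named, the replicate block changed none for the 32 probe sets. The fit of only the groups compared does not apply to the mean of the days or to the test between days. Causes of these changes were not tested. Apart from the shares given above for the mean of the days, the counts over all probe sets under these alternatives are not given here. Current symbols gave the same genes, so no value differed. Dim probe sets limit what can be said of 10 of the 27 genes.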

Other observations

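Setting TCDD fish at 5 dpa beside vehicle fish at 3 dpa, a comparison added after the data were seen, gave similar levels of the type I chains. col1a1a had means of 14.03 and 14.04, a difference of -0.01 with a 95% confidence interval of -0.43 to 0.41. col1a2 had 13.84 and 13.86, a difference of -0.02 (-0.44 to 0.41), and col11a1a 10.45 and 10.65, a difference of -0.20 (-0.95 to 0.55). For col15a1a the interval lay below 0, at -0.91 (-1.75 to -0.07). It was the only interval among the 27 genes that excluded 0, and the intervals are not adjusted for the number of genes. The intervals for col5a2a (-0.96 to 0.14), col6a3 (-0.30 to 0.91) and col10a1b (-1.17 to 1.71) spanned 0. These intervals are wide and do not show that the levels are equal, and day and exposure both differ between the groups.

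The ranks of arrays within a group were uneven over the 17 brighter genes. Vehicle replicate B was the lowest of its 3 arrays for 11 genes at 1 dpa, 15 at 3 dpa and 10 at 5 dpa, and TCDD replicate D at 5 dpa was the lowest for none. Ranks over all probe sets are not given here, so whether this is particular to the 17 genes cannot be told.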
